A study of Caenorhabditis elegans with 13 samples.

Results

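Wild type hermaphrodites treated with RNAi against *dpy-27*, which encodes a condensin subunit, were compared with wild type hermaphrodites on control vector RNAi, gene by gene and gene family by gene family. The comparison was chosen by its labels: 4 libraries labelled *dpy-27(RNAi)* and 3 labelled vector RNAi, 7 of the 13 libraries of the study. Both groups were N2, the Bristol wild type strain. All groups consisted of whole L1 larvae that hatched overnight without food and then fed for 3 hours on OP50 bacteria, and RNA was extracted from packed larvae, selected for poly(A) and sequenced without strand information. The study delivered RNAi by feeding HT115 bacteria that make double-stranded RNA. The study describes the depletion as partial, with little lethality, so the group is a model of reduced and not of absent dosage compensation. The other 6 libraries come from *cec-4(ok3124)* mutants (strain RB2301) and *met-2(n4256) set-25(n5021)* double mutants (strain EKM99), 3 each, both on vector RNAi, and are used here only as values beside those of the comparison. These mutants were set against the same 3 control libraries.

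The dosage compensation complex (DCC) of *C. elegans* binds both X chromosomes of hermaphrodites and lowers their transcription, so that X-linked transcripts match those of males, which have a single X. Its core is a condensin, a ring-shaped complex that loops and compacts DNA, in which DPY-27 takes the place of an SMC subunit of the mitotic condensins. SDC-2 and its partners bring the complex to X. Newly hatched L1 larvae arrest without food and restart growth, postembryonic cell division and metabolism when they feed.

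The deposited expression values are 1 mean FPKM (fragments per kilobase of transcript, scaled to the mapped fragments of each library) for each group and gene, with no value for single libraries. A spread between libraries, a test and a p-value could therefore not be computed from these means, and every difference below is a description of the means of 4 and 3 libraries. The difference is given as the centred log2 ratio, log2 of (FPKM + 0.1) in *dpy-27(RNAi)* over the same in the control, minus the median of all genes compared, which was 0.04. The 15942 genes compared are those of 46170 in the table whose mean over the 2 groups was above 1 FPKM. A gene was counted as higher or lower when its centred ratio passed 1.5-fold (0.58 on the log2 scale), which is a rule of size.

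The targeted transcript was not lower in the group labelled *dpy-27(RNAi)*. *dpy-27* (chromosome III, 3813018 to 3819679, WBcel235) was at 31.6 FPKM in this group and 32.3 FPKM in the control, a centred log2 ratio of -0.08, with 36.4 FPKM in *cec-4* and 33.2 FPKM in *met-2 set-25*. The mRNA level thus does not check the label. The study followed the depletion by the DPY-27 protein, which these values do not measure, and the group is called the *dpy-27(RNAi)* group below by its label alone. The other 9 DCC genes were close to the control as well. *mix-1*, the SMC subunit shared with mitotic condensins, had the largest ratio (26.2 FPKM in the control, 21.7 in *dpy-27(RNAi)*, centred log2 ratio -0.31). *dpy-30*, a subunit shared with histone H3K4 methyltransferases, followed with 160 and 142 FPKM (-0.22). The X-recruitment genes *sdc-2* (7.02 and 7.82 FPKM, 0.11), *sdc-1* (-0.17) and *sdc-3* (-0.11), the condensin genes *dpy-26* (-0.12), *dpy-28* (0.03) and *capg-1* (-0.10), and the H4K20 demethylase gene *dpy-21* (0.07) were all within 1.5-fold. None of the 36 compared genes of H3K9 methylation, chromatin anchoring and the lamina passed 1.5-fold either, including *cec-4* (18.2 and 14.5 FPKM, -0.37), *met-2* (17.6 and 15.9 FPKM, -0.19) and *set-25* (8.93 and 7.02 FPKM, -0.39). Their median centred log2 ratio was -0.13.

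Over all genes, 2074 (13%) were higher by 1.5-fold and 1524 (9.56%) were lower. Among 13005 protein-coding genes, 1195 (9.19%) were higher and 861 (6.62%) lower, and these shares are the background for every protein-coding list below. The shares depended on the level. Of protein-coding genes with a mean of 1 to 4.23 FPKM, 21.7% were higher and 9.38% lower, with a median of 0.16, whereas above 50.5 FPKM 3.31% were higher and 6.65% lower, with a median of -0.06. A list of rare transcripts therefore starts from a higher background than a list of abundant ones.

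The control and *met-2 set-25* were the groups most often outside all the others. Genes were counted in which the mean of a group lay at least 1.5-fold above or below the means of all other 3 groups, a count added after seeing the data. Of 13183 protein-coding genes with a mean of the 4 groups above 1 FPKM, the control was above the rest in 463 and below in 541, *met-2 set-25* above in 582 and below in 392, and *cec-4* above in 353 and below in 199. The *dpy-27(RNAi)* group was above the rest in 81 (0.614%) and below in 53 (0.402%). For many genes with a large ratio, all 3 other groups therefore lay on the same side of the control. The 3 comparisons share the control libraries. By these ratios, a difference of *dpy-27(RNAi)* from the control cannot be told apart from a difference of the control libraries from all the rest. The values of all 4 groups are therefore given for many of the genes described. Where only 2 values stand, they are those of the control and *dpy-27(RNAi)*, and the place of the mutants is not shown.

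**Figure D1:**
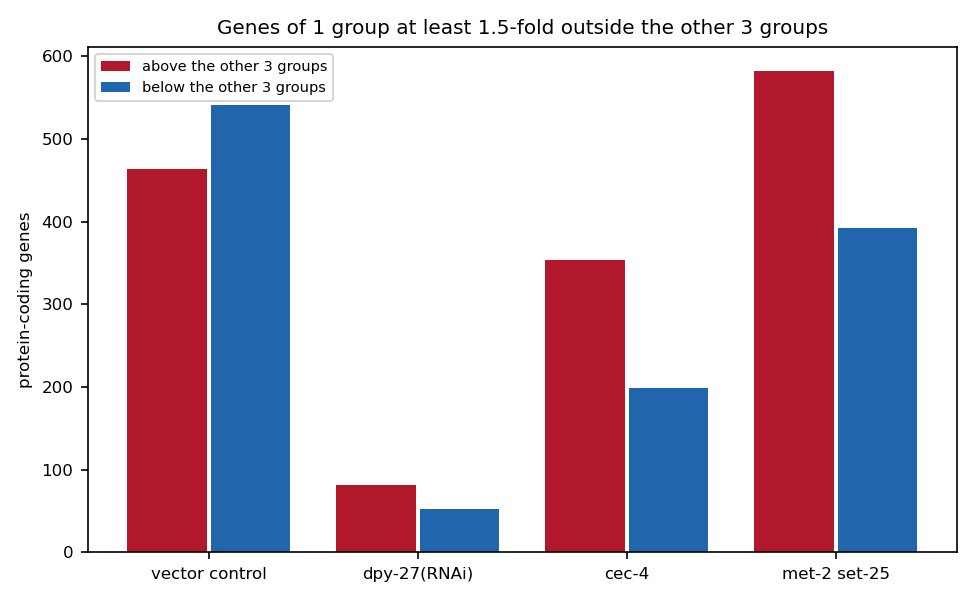
Number of protein-coding genes (y axis) in which 1 group (x axis) lay at least 1.5-fold above (red bars) or below (blue bars) all other 3 groups. Log2 mean FPKM was centred on the median gene of each group before this count. The bars of *dpy-27(RNAi)*, 81 and 53 genes, are the shortest, those of *met-2 set-25* are at 582 and 392 genes, and those of the control at 463 and 541 genes.

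Genes of DNA synthesis and cell division were lower in the *dpy-27(RNAi)* group. All 34 DNA replication genes had a centred ratio below 0, 18 of them passed 1.5-fold and none was higher, with a median of -0.62. *mcm-7*, a subunit of the replicative helicase, was at 37.7 FPKM in the control, 20.02 in *dpy-27(RNAi)*, and 9.59 (*cec-4*) and 13.3 (*met-2 set-25*) in the mutants. *pcn-1*, the sliding clamp PCNA and the most abundant member, was at 134, 80.1, 41.1 and 45.1 FPKM in the same order. The *dpy-27(RNAi)* group thus lay between the control and both mutants for these genes. *orc-3*, of the origin recognition complex, had the largest ratio (7.0 and 3.46 FPKM, -1.04), and the GINS genes *psf-3* (8.58 and 4.42 FPKM, -0.98) and *psf-2* (1.49 and 0.746 FPKM, -0.95) were similar.

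The cell cycle list gave the same picture, with 13 of 25 compared genes lower, none higher and a median of -0.60. *cdc-25.2*, a phosphatase that activates CDK1, was at 16.49 FPKM in the control and 5.43 in *dpy-27(RNAi)*, with 4.23 (*cec-4*) and 4.16 (*met-2 set-25*) in the mutants. *cyb-3* (cyclin B3) was at 40.1 and 20.04 FPKM, *cdk-1* at 45.5 and 24.4 FPKM, and *fzy-1*, the activator of the anaphase-promoting complex, at 16.3 and 9.04 FPKM. The CDK inhibitor *cki-1*, which holds cells out of division, was the most abundant gene of the list and within the fold (62.8 and 54 FPKM, -0.26). Of 25 compared histone genes 6 were lower and 2 higher (median -0.24). The linker histone gene *his-24*, X-linked, was at 470 and 227 FPKM (-1.09), and the H3.3 gene *his-72* at 562 and 511 FPKM (-0.18). Most core histone transcripts lack poly(A) tails and near-identical copies share reads, so values of *his-31* (3.29 and 0.876 FPKM), *his-32* (5.51 and 1.91 FPKM) and *his-3* (4.48 and 2.2 FPKM) are uncertain.

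Among the other condensin and cohesin genes, 2 of 14 were higher and 2 lower. The condensin II genes *hcp-6* (9.99 and 6.46 FPKM, -0.67) and *capg-2* (9.06 and 5.90 FPKM, -0.66) were lower. The meiotic cohesin genes *coh-3* (0.872 and 1.97 FPKM, 1.04) and *coh-4* (0.767 and 1.26 FPKM, 0.61) were higher, both from values below 1 FPKM in the control. Genes of the general cell machinery stood closer to 0. The 80 cytosolic ribosomal protein genes had a median of -0.06 and the 70 mitochondrial ribosomal protein genes 0.06. The 25 nucleolar and ribosome biogenesis genes were at 0.20, with 24 above 0, and the 33 proteasome genes were at -0.28, with 32 below 0. None of these 4 lists had a member past 1.5-fold.

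**Figure D2:**
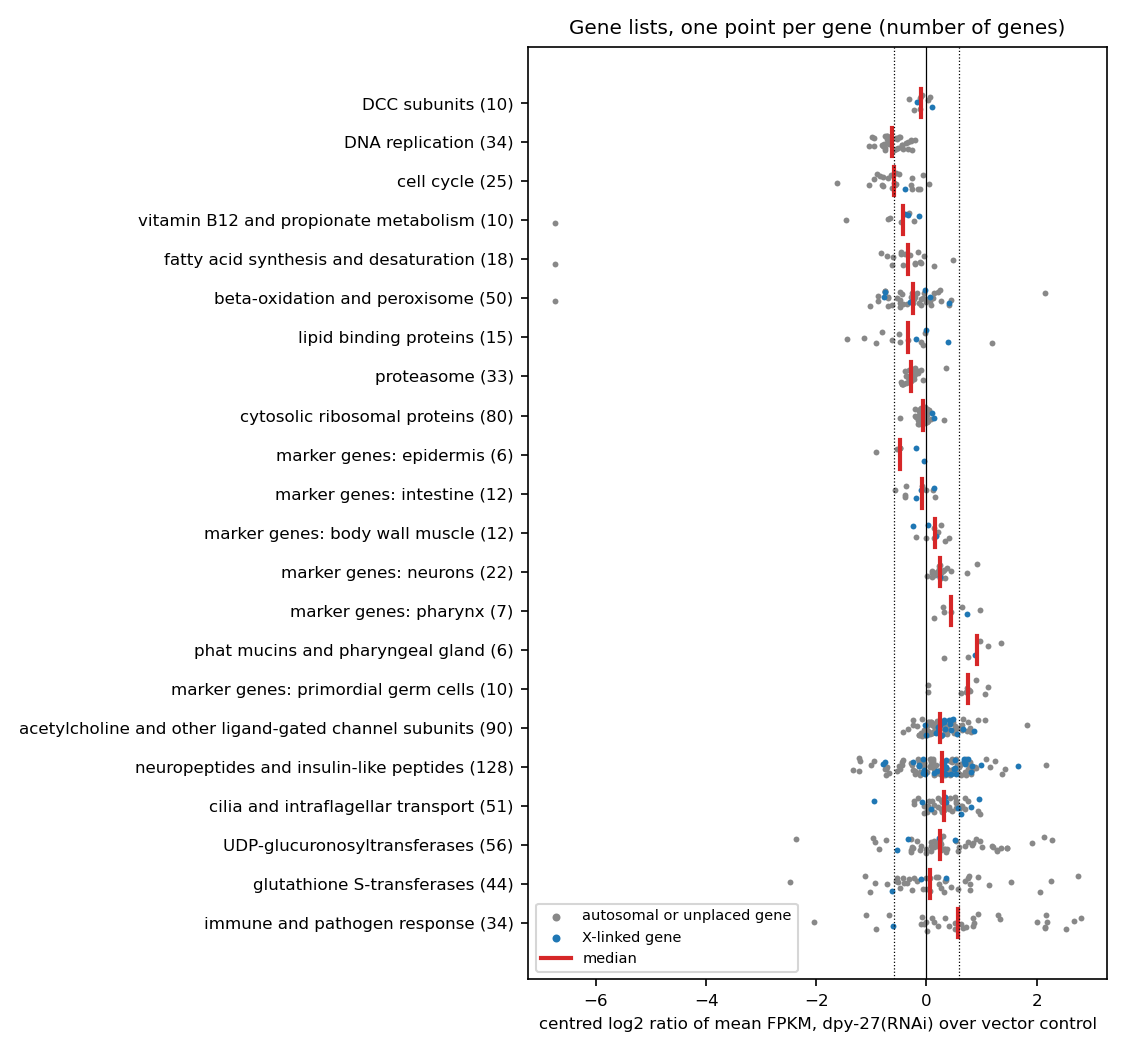
Centred log2 ratio of mean FPKM, *dpy-27(RNAi)* over control (x axis), for every compared gene of 22 gene lists (rows, with the number of genes), X-linked genes in blue, all others in grey, medians as red bars and 1.5-fold as dotted lines. All 34 DNA replication genes lie left of 0, whereas all 22 neuron, 7 pharynx and 10 germ cell marker genes lie right of 0.

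Genes of lipid and propionate metabolism were lower as well. *acdh-1* (chromosome I, 6497436 to 6499560), an acyl-CoA dehydrogenase of the propionate shunt that is known to be transcribed when vitamin B12 is scarce, had the lowest ratio of all protein-coding genes above 5 FPKM. It was at 26.3 FPKM in the control, 0.153 in *dpy-27(RNAi)*, and 0.252 (*cec-4*) and 0.333 (*met-2 set-25*) in the mutants. The transcript was nearly absent from all 3 groups other than the control, and the ratio of 108-fold depends on the added 0.1 FPKM. *hphd-1* (listed as *Y38F1A.6*), another enzyme of this shunt, was at 48.1, 18, 26.9 and 25.06 FPKM in the same order. *nhr-68*, a nuclear receptor that switches on the shunt, was at 29.6, 13.8, 15.7 and 20.8 FPKM. All 10 genes of the B12 and propionate list lay below 0 (4 lower by 1.5-fold, median -0.42). They included *mel-32*, the serine hydroxymethyltransferase and most abundant member (185 and 117 FPKM, -0.71), and *mthf-1*, the methylenetetrahydrofolate reductase (58.2 and 38 FPKM, -0.66). The B12-dependent enzymes themselves were within the fold, with *mmcm-1* (methylmalonyl-CoA mutase) at -0.31 and *metr-1* (methionine synthase) at -0.46.

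Of 18 compared genes of fatty acid synthesis and desaturation, 5 were lower and none higher (median -0.34). The fatty acid elongases *elo-1* (737 and 463 FPKM, -0.72), *elo-5* (183 and 122 FPKM, -0.63) and *elo-6* (299 and 174 FPKM, -0.83) and the ketoacyl-CoA reductase *let-767* (285 and 193 FPKM, -0.61) made up this count together with *acdh-1*. *acdh-1*, the propionate shunt gene above, is counted as lower in this list, in the B12 and propionate list and in the beta-oxidation list. Of 50 genes of beta-oxidation and peroxisomes, 13 were lower and 1 higher (median -0.25), and the 1 was *ech-9*, an enoyl-CoA hydratase gene (1.16 and 5.67 FPKM, with 21.4 in *cec-4*). Of 15 lipid binding protein genes, 5 were lower and 1 higher. *lbp-6* was at 737, 401, 364 and 273 FPKM, and *far-8* at 82.3, 31.1, 53.9 and 21.3 FPKM. *far-1*, a secreted fatty acid and retinol binding protein and the most abundant member, was at 5280 and 3853 FPKM (-0.50). The lipases split. *lipl-2* (58.5 and 18 FPKM) and *lipl-5* (124 and 61.8 FPKM), both lysosomal lipases, were lower, and *lips-15* (26.3 and 81.6 FPKM) and *lips-16* (5.12 and 17.2 FPKM) were higher. For *lipl-2* the mutants were at 55.6 and 36.6 FPKM, so the *dpy-27(RNAi)* group was below all others.

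Several of the other genes with the lowest ratios lie in small clusters and were lower in all 3 groups than in the control. *pud-1.2*, *pud-3* and *pud-4* (chromosome V, 2322038 to 2327282) belong to a family known for its higher level in *daf-2* insulin receptor mutants. *pud-3* was at 634 FPKM in the control, 18.3 in *dpy-27(RNAi)*, and 71.1 (*cec-4*) and 4.13 (*met-2 set-25*) in the mutants, *pud-4* at 488, 20.7, 42.0 and 6.97, and *pud-1.2* at 333, 22.5, 67.4 and 11.7. No other group came near the control for these genes. *pud-1.2* has a near-identical copy, and its value is uncertain. *sqst-3*, a relative of the autophagy adaptor p62, was at 17.4, 0.28, 1.76 and 0.19 FPKM. The C-type lectin genes *clec-60* (15.1, 1.39, 3.18 and 0.994 FPKM) and *clec-82* (17.4, 1.43, 1.34 and 2.44 FPKM) were similar. C-type lectins bind sugars and many respond to bacteria, and 22 of the 93 compared were lower and 13 higher. *clec-61*, beside *clec-60*, had 5.20 FPKM in the control and 0.0871 in *dpy-27(RNAi)*, and *clec-63*, the most abundant one, was equal (654 and 640 FPKM).

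*ocr-1* was an exception to this pattern. This gene for a TRPV ion channel of sensory neurons was at 10.9 FPKM in the control, 0.843 in *dpy-27(RNAi)*, and 16.3 (*cec-4*) and 27.7 (*met-2 set-25*) in the mutants, so that the *dpy-27(RNAi)* group alone was low. The remaining genes among the 12 lowest were *ZK218.1* (62.0 and 7.97 FPKM, 11.4 and 20.4 in the mutants), *nspc-16*, *W03F9.4* (9.51 and 1.66 FPKM) and *C44H9.7* (30.5 and 5.76 FPKM).

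The 12 genes with the highest ratios were at 26 FPKM or below in the control. *C08H9.18* was listed at 0 in the control and in *met-2 set-25* and at 17.8 and 17.4 FPKM in *dpy-27(RNAi)* and *cec-4*. *tag-293* was at 0.641, 18.4, 17.5 and 2.23 FPKM in control, *dpy-27(RNAi)*, *cec-4* and *met-2 set-25*. Small heat shock genes were high in the same groups. *hsp-16.11* (now *hsp-16.1*), a chaperone gene that is nearly silent without stress, was at 4.32, 31.8, 36.2 and 4.58 FPKM. *hsp-16.41* was at 2.15, 9.91, 15.4 and 2.40 FPKM and *hsp-16.2* at 3.16, 13.7, 17.6 and 4.05 FPKM. The *met-2 set-25* mean of these genes lay near the control, and the *hsp-16* genes have near-identical copies that share reads. The other 15 of the 18 compared heat shock protein genes held no higher gene and 1 lower one (*hsp-12.3*, 8.29 and 5.58 FPKM), and *daf-21* (HSP90) was at 1212 and 1197 FPKM.

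The rest of the 12 highest were *C01G10.4*, *C01G10.5* and *C01G10.17*, *nspe-8*, *C08E8.3*, *F35E12.5*, *F14D7.7* (now *spig-4*), *scl-24* and *C12D8.21*. The *C01G10* genes are neighbours on chromosome V (15089076 to 15091114), and *C01G10.5* was at 26 FPKM in the control, 162 in *dpy-27(RNAi)*, and 159 (*cec-4*) and 69.1 (*met-2 set-25*) in the mutants. *C08E8.3* was at 5.36 and 41.4 FPKM, with 33.4 and 7.03 in the mutants. *scl-24*, of the SCP family of secreted proteins, was at 5.50 and 31.9 FPKM, with 10.2 and 30.8 in the mutants. *F14D7.7* was at 1.73 and 11.9 FPKM and *C12D8.21* at 2.09 and 11.4 FPKM, with 54.7 in *cec-4*.

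**Figure D3:**
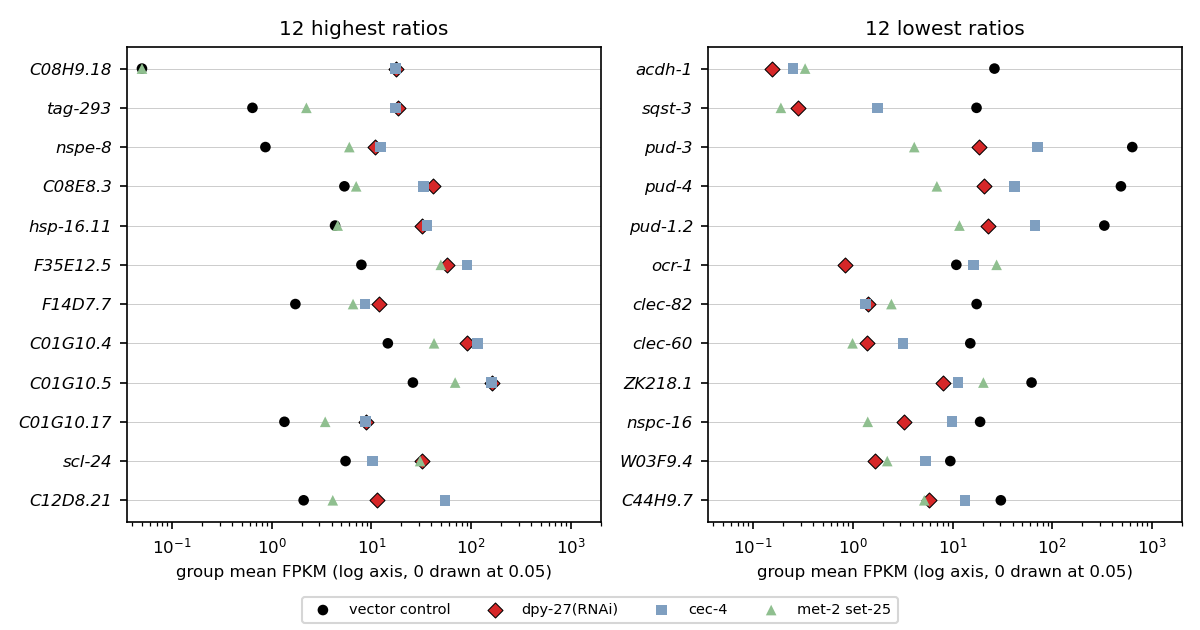
Mean FPKM (x axis, log scale, 0 drawn at 0.05) of each of the 4 groups for the 12 protein-coding genes with the highest (left) and the 12 with the lowest (right) centred ratio of *dpy-27(RNAi)* over control, among genes above 5 FPKM. The control (black) is the extreme group for *acdh-1* (26.3 FPKM against 0.153 to 0.333 FPKM) and for the *pud* genes, whereas *dpy-27(RNAi)* (red) stands alone for *ocr-1* (0.843 FPKM).

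By count, the lists of UDP-glucuronosyltransferase (UGT) and glutathione S-transferase (GST) genes held the most genes in which the *dpy-27(RNAi)* group stood above all 3 other groups. The lists differ in size, and 3 of 32 immune and pathogen response genes and 2 of 22 gut protease genes were above as well. Among 39 cytochrome P450 and 44 ABC transporter genes, which also serve detoxification, there were 0. UDP-glucuronosyltransferases attach sugar acids to foreign compounds and glutathione S-transferases attach glutathione. Of 58 UGT genes, 7 were above all other groups by 1.5-fold and 1 below, and of 44 GST genes 4 were above and 1 below, beside 0.614% above and 0.402% below for all protein-coding genes. *gst-4* (chromosome IV, 10142225 to 10143099), the standard reporter of the oxidative stress factor SKN-1, was at 20.5 FPKM in the control, 61.4 in *dpy-27(RNAi)*, and 21.9 (*cec-4*) and 25.8 (*met-2 set-25*) in the mutants. *gst-17* was at 1.24, 6.49, 2.22 and 2.74 FPKM and *gst-18* at 1.09, 8.16, 2.86 and 2.2 FPKM. In all 3 genes *dpy-27(RNAi)* was above every other group. *gst-17* and *gst-18* overlap on chromosome II, so their reads cannot be assigned surely to either.

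*gst-17* and *gst-18* belong to a run of 7 neighbouring genes on chromosome II (13614781 to 13636998) that were all higher than the control. *gst-12* was at 9.05 and 20.8 FPKM, *gst-14* at 7.44 and 13, *gst-16* at 7.84 and 13.2, *gst-19* at 2.02 and 4.07, and *tag-10* at 116 and 234 FPKM. For *gst-14* both mutants were higher still (14.5 and 16.7 FPKM), and for *tag-10* they were at 151 and 101 FPKM. The omega-class transferase *gsto-1* was at 60.7, 108, 46.2 and 53.1 FPKM. Not all GST genes were higher. *gst-41* was at 3.90, 0.644, 4.94 and 0.0504 FPKM, and *gst-27*, the most abundant, at 297 and 221 FPKM. Over 44 GST genes 11 were higher and 6 lower than the control, and the median was 0.06.

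Of 56 UGT genes compared with the control, 18 were higher and 5 lower (median 0.25). *ugt-16* was at 11.1, 43.6, 25.07 and 22.6 FPKM, and *ugt-8* at 1.131, 5.46, 3.37 and 2.37 FPKM. *ugt-9* (4.81, 13.9, 5.48 and 6.14 FPKM) and *ugt-63* (2.60, 6.23, 1.56 and 2.25 FPKM) were high in *dpy-27(RNAi)* alone. *ugt-8* and *ugt-9* lie with *ugt-11* (3.61 and 6.11 FPKM) and *ugt-13* (14 and 35.4 FPKM) in a run on chromosome V (4892588 to 4911399). *ugt-41* was at 0.957 and 5.21 FPKM. *ugt-53* went the other way in all groups (6.14, 1.15, 1.1 and 0.509 FPKM), and *ugt-46*, X-linked and the most abundant, was at 68.5 and 101 FPKM (0.51). Cytochrome P450 genes, which act before conjugation, were balanced, with 6 of 43 higher and 5 lower.

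Other genes in which the *dpy-27(RNAi)* group was above all others were picked after their values were seen. *hrg-3*, a secreted peptide that carries heme from the intestine to other tissues, was at 17.5 FPKM in the control, 60.3 in *dpy-27(RNAi)*, and 23 (*cec-4*) and 27.4 (*met-2 set-25*) in the mutants. *hrg-4*, an intestinal heme importer, was at 25.9, 46.7, 27 and 23.4 FPKM. Both genes are known to be transcribed when heme is scarce, and *hrg-1*, a lysosomal heme transporter, was within the fold (217 and 300 FPKM, 0.43). *fmo-2*, a flavin-containing monooxygenase, was at 74.0, 236, 110 and 146 FPKM. The cathepsin B-like proteases *cpr-5* (519, 911, 229 and 446 FPKM) and *cpr-8* (listed as *W07B8.1*) were also highest in this group. *W07B8.1* was at 19.3, 43.3, 8.35 and 19.4 FPKM. Below all others were *icl-1*, the glyoxylate cycle enzyme (37.7, 16, 26.9 and 35.8 FPKM), *catp-3*, a P-type ATPase gene (41.5, 18, 36 and 88.6 FPKM), the insulin-like gene *ins-12* (5.76, 2.47, 5.31 and 4.10 FPKM) and *her-1*. *her-1* encodes the secreted signal for male fate and is known to be repressed in hermaphrodites by the SDC proteins. It was at 3.46 FPKM in the control, 1.66 in *dpy-27(RNAi)*, and 2.80 (*cec-4*) and 7.73 (*met-2 set-25*) in the mutants.

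**Figure D4:**
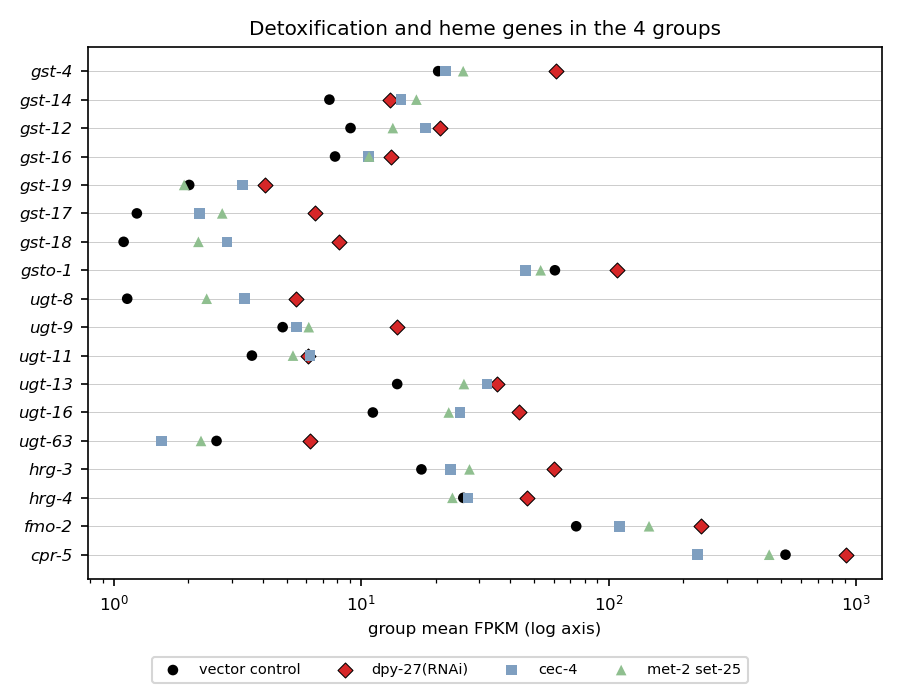
Mean FPKM (x axis, log scale) of each of the 4 groups for detoxification and heme genes and 1 protease gene, chosen by hand. Most of them were already above all other groups by 1.5-fold. The *dpy-27(RNAi)* group (red diamonds) lies right of all others in 16 of the 18 genes, which follows largely from this choice. An instance is *gst-4* with 61.4 FPKM against 20.5 to 25.8 FPKM, and the exceptions are *gst-14* and *ugt-11*. *gst-41*, *gst-27* and *ugt-53*, which were below the control, are not drawn.

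A second set with a gene cluster behind it was the *pals* family, large in *C. elegans* and known for transcription during infection by microsporidia and virus. Most *pals* genes are listed under older clone names and were found by the current symbol of their gene ID. Of 37 listed, 27 were compared, of which 15 were higher and 2 lower, with a median of 0.66. The *pals* genes at 1 cluster on chromosome I (13085106 to 13141898) had the largest ratios. *pals-14* (listed as *F22G12.1*) was at 1.92 FPKM in the control, 9.11 in *dpy-27(RNAi)*, and 1.35 (*cec-4*) and 5.48 (*met-2 set-25*) in the mutants. *pals-2* (*C17H1.3*) was at 0.483, 3.38, 0.553 and 2.64 FPKM and *pals-4* (*C17H1.5*) at 0.830, 4.15, 0.901 and 1.75 FPKM. All 7 *pals* genes of this cluster had centred ratios between 2.01 and 2.68. For 6 of these 7 the control was below 1 FPKM, so they were compared only because the other group was high.

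Without that cluster, 8 of 20 *pals* genes were higher, 2 lower, and the median was 0.46. The 2 lower ones lie together on chromosome III, *pals-16* (*Y82E9BR.4*, 4.09 and 1.92 FPKM) and *pals-17* (*Y82E9BR.13*, 28.6 and 18.4 FPKM). *pals-22* (*C29F9.1*), known as a repressor of the response, was at 14.9 and 16.55 FPKM, and *pals-25* (*T17A3.2*), known as its activator, at 11.2 and 11.2 FPKM. *F26F2.1*, *F26F2.3* and *F26F2.4*, which lie in a run of 6 higher genes on chromosome V, were also above all other groups. *F26F2.1* was at 0.740, 2.33, 0.740 and 1.128 FPKM, *F26F2.3* at 0.476, 2.31, 0.780 and 1.3 FPKM, and *F26F2.4* at 0.988, 4.80, 0.977 and 2.1 FPKM.

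The list of immune and pathogen response genes, which holds the *pals* genes and the *irg* genes, had 17 of 34 higher and 5 lower, with a median of 0.57. These include the 27 *pals* genes above, and of the other 7 members 2 were higher and 3 lower. The median was 0.35 when each of the 2 groups had to be above 1 FPKM and 0.15 when the mean had to be above 5 FPKM. *irg-5* (listed as *F35E12.5*), a gene used as a readout of the response to pathogenic bacteria, was at 7.93 FPKM in the control and higher in all other groups, with 57.6 in *dpy-27(RNAi)*, and 90.8 (*cec-4*) and 49.6 (*met-2 set-25*) in the mutants. *F40F4.6* (*irg-7*), X-linked, was lower (480 and 323 FPKM, -0.61). Antimicrobial families were balanced. Of 69 genes of lysozymes, saposins and antimicrobial peptides 12 were higher and 12 lower. Within them the caenacin genes *cnc-7* (0.492 and 2.2 FPKM), *cnc-6* (2.42 and 7.86 FPKM), *cnc-2* (3.61 and 7.29 FPKM) and *cnc-4* (20.4 and 34.4 FPKM) were higher, while *cnc-8*, X-linked and the most abundant, was at 296 and 217 FPKM (-0.49).

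**Figure D5:**
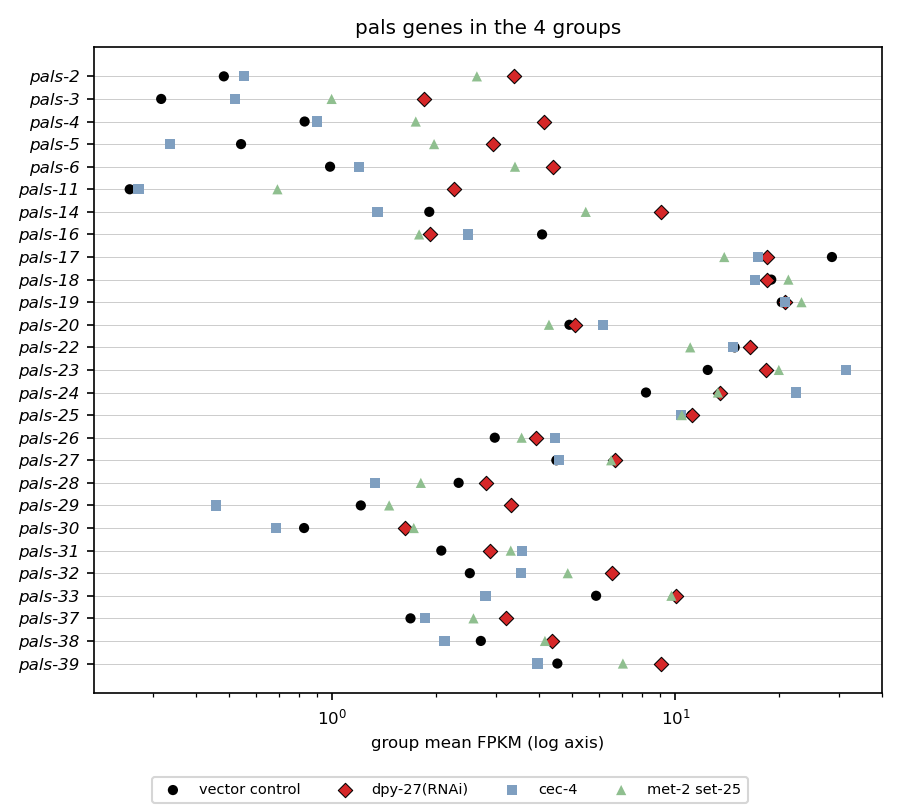
Mean FPKM (x axis, log scale) of each of the 4 groups for the 27 *pals* genes compared, by current symbol. From *pals-2* to *pals-14* the *dpy-27(RNAi)* group (red) and *met-2 set-25* (green) lie right of control (black) and *cec-4* (blue), as in *pals-14* with 9.11 and 5.48 FPKM against 1.92 and 1.35 FPKM.

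Marker genes of tissues differed in direction. In whole larvae, fewer cells of a type and less RNA per cell cannot be told apart. All 22 neuronal marker genes lay above 0, with a median of 0.24, but only 2 passed 1.5-fold. These were *tph-1*, for serotonin synthesis (2.72, 5.36, 5.50 and 5.35 FPKM), and *cat-2*, for dopamine synthesis (0.896 and 1.6 FPKM). *sbt-1*, the neuropeptide processing chaperone and most abundant neuronal marker, was at 482 and 534 FPKM (0.10). Body wall muscle markers had a median of 0.16 and intestinal markers -0.09, and none of the 12 in each list passed 1.5-fold. Of 10 epidermal markers only 6 were compared, all below 0 with a median of -0.48. *nhr-23*, a nuclear receptor that drives molting, was at 17.4 and 9.45 FPKM (-0.92). Yolk genes of adults and major sperm protein genes were below the minimum, with no gene above 0.192 and 1.49 FPKM in either group.

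Pharyngeal genes were higher in part. All 7 markers lay above 0, and the 3 that passed 1.5-fold were all myosin heavy chains of pharyngeal muscle. *myo-2*, X-linked, was at 253 FPKM in the control, 436 in *dpy-27(RNAi)*, and 357 (*cec-4*) and 425 (*met-2 set-25*) in the mutants, *myo-1* at 176, 284, 264 and 331 FPKM, and *myo-5* at 49.2, 99.9, 102 and 111 FPKM. Of 6 compared genes of the *phat* mucins and the pharyngeal gland, 5 were higher. *phat-8* (listed as *F15A4.6*) was at 114.7 and 303 FPKM, *phat-5* at 4.91 and 11.2 FPKM and *phat-6*, X-linked, at 46.4 and 88.1 FPKM, where *cec-4* and *met-2 set-25* had 56.6 and 56.8 FPKM. *eat-2*, a nicotinic receptor subunit that sets the speed of pharyngeal pumping, was at 0.958, 3.76, 3.37 and 3.29 FPKM. For every pharyngeal gene named here, all 3 groups were above the control. Of 49 compared genes of the pharyngeal *abu* and *pqn* proteins, 8 were higher and none lower, with a median of 0.10 and 16 below 0.

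Genes of the primordial germ cells were also higher. L1 larvae hold only a pair of these cells, and their transcripts were rare. Of 10 markers compared, 8 were higher and none lower, with a median of 0.76, which was 0.53 with 1 FPKM added in place of 0.1. *pgl-1*, a P granule component, was at 3.45 FPKM in the control, 7.51 in *dpy-27(RNAi)*, and 4.55 (*cec-4*) and 25 (*met-2 set-25*) in the mutants. *pgl-3* was at 1.1, 2.21, 1.33 and 7.21 FPKM, and the helicase gene *glh-4* at 1.06, 2.47, 1.93 and 1.38 FPKM. The helicase gene *glh-1*, the most abundant marker, was equal in both groups (25.5 and 26.8 FPKM) and at 168 FPKM in *met-2 set-25*. The Piwi gene *prg-1* was at 14.3 and 24.4 FPKM, with 137 in *met-2 set-25*. Of 18 Argonaute genes, which bind small RNAs, 7 were higher and 1 lower, among them *wago-2* (1.91 and 4.16 FPKM) and *ppw-2* (4.34 and 8.70 FPKM), and the 1 lower was *sago-2* (2.06 and 1.05 FPKM). The germ cell markers themselves include the Argonaute genes *csr-1*, *prg-1* and *wago-1*, so these lists can share genes. Of the 39 genes of the RNA interference pathway list 1 passed 1.5-fold.

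Genes of neuronal signalling were higher in part. Of 128 neuropeptide and insulin-like genes 32 were higher and 14 lower (median 0.28). *R08B4.5* (now *nlp-66*), X-linked, was at 12.11, 39.6, 38.4 and 27.2 FPKM. The insulin-like genes *ins-20* (1.11, 5.50, 8.55 and 2.49 FPKM), *ins-10* (8.85, 24.7, 23.1 and 15 FPKM) and *ins-25* (2.89, 7.84, 6.62 and 5.66 FPKM) had the largest ratios of the 26 *ins* genes compared. Of these 10 were higher and 4 lower. *nlp-40*, the most abundant peptide gene and a product of the intestine, was at 631 and 452 FPKM (-0.53). *daf-7*, the TGF-beta ligand of sensory neurons that promotes growth over dauer arrest, was at 27.5, 60.8, 56.3 and 54 FPKM. *daf-28*, an insulin with a similar role, was at 59.2, 94.5, 84.1 and 55.6 FPKM.

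Of 90 subunit genes of acetylcholine and other ligand-gated channels, 13 were higher and none lower (median 0.25), among them *lgc-11*, X-linked, at 4.77 and 9.02 FPKM. Of 51 genes of cilia and intraflagellar transport 11 were higher and 1 lower (median 0.32). Cilia are present only on sensory neurons in this animal. *dyf-3* was at 5.33 and 10.9 FPKM, *ift-81*, X-linked, at 4.54 and 9.14 FPKM and *xbx-1*, a dynein light intermediate chain, at 1.90 and 3.87 FPKM, and *dyf-7*, a tip anchor for dendrites, at 2.63 and 1.35 FPKM. Of 20 guanylyl cyclase genes 7 were higher and 3 lower. The thermosensory *gcy-8* (1.65 and 3.90 FPKM) and *gcy-23* (3.56 and 8.01 FPKM) were higher, whereas *gcy-32* (3.70 and 1.78 FPKM) and *gcy-36* (5.97 and 2.98 FPKM), which act in oxygen-sensing neurons, were lower. Of 46 homeobox genes with the name prefix *ceh* 11 were higher and none lower, led by *ceh-33* (3.66, 9.42, 6.41 and 7.13 FPKM). Homeobox genes with other names were not counted. These lists are of low to middle level, where the background of higher genes is largest. Of protein-coding genes at 4.23 to 11.7 FPKM 11.9% were higher, beside 14.4% of the ligand-gated channel genes. Other lists of channels and receptors held smaller shares. Potassium and other ion channels had 5 of 80 genes higher and 1 lower (median 0.17). Neurotransmitter receptors and G proteins had 3 of 49 higher and 3 lower (median 0.16). Chemoreceptors had 13 of 118 higher and 16 lower (median -0.03).

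Cuticle and molting genes were split. Of 69 compared collagen genes 16 were higher and 10 lower, with *col-96* at 4.21 and 13.6 FPKM and *col-149* at 5.75 and 1.4 FPKM. *col-166*, X-linked and the most abundant, was at 927 and 665 FPKM (-0.52). Of 41 hedgehog-related and patched-related genes 4 were higher and 10 lower. The groundhog-like genes *grd-10* (276 FPKM in the control, 79.7 in *dpy-27(RNAi)*, and 62.9 (*cec-4*) and 43.7 (*met-2 set-25*) in the mutants), *grd-13* (141, 43.3, 35.8 and 24.8 FPKM) and *grd-3* (78.8, 29.2, 37.3 and 21.9 FPKM) are neighbours on chromosome IV (3438312 to 3441841) and had the lowest ratios with *wrt-10* (1.86 and 0.544 FPKM). *lin-42*, the Period homologue that times larval molts, was at 4.22, 1.56, 0.482 and 1.133 FPKM.

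X-linked genes took part in both directions. Of 1977 X-linked protein-coding genes 12.4% were higher and 4% lower, beside 8.62% and 7.1% of 11016 autosomal ones. The 6 X-linked genes with the highest ratios were at 2.29 to 12.11 FPKM in the control, so that none was among the abundant transcripts. They were *R07B1.8* (2.80, 11.5, 11.5 and 6.96 FPKM), *ttr-38* (2.29, 9.15, 8.38 and 5.12 FPKM), *Y41G9A.10* (9.10, 33.1, 34.4 and 21.9 FPKM), *F35B3.4* (5.14, 17.8, 15.6 and 10.7 FPKM), *M163.8* (3.98, 13.3, 19.9 and 8.72 FPKM) and *R08B4.5*. In each of these, *met-2 set-25* lay between the control and the other two groups.

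X-linked genes in which *dpy-27(RNAi)* alone was high were fewer than the 245 X-linked protein-coding genes higher than the control. Of 2001 X-linked genes 18 were above all 3 other groups and 1 below, beside 63 above and 52 below of 11170 autosomal genes. The share above was thus larger on X, and the share below was larger on the autosomes. *C03B1.10* was at 5.31, 15.4, 5.52 and 4.57 FPKM, *R193.2* at 23.1, 62.7, 31.3 and 36.7 FPKM and *F59C12.4* at 508, 905, 519 and 446 FPKM, all picked after their values were seen. The mutant means stayed within 1.5-fold of the control for *C03B1.10* and *F59C12.4*, whereas *met-2 set-25* was past it for *R193.2*. *hen-1*, a secreted protein of sensory neurons, was at 2.72, 6.39, 3.14 and 4.06 FPKM. The X-linked ABC transporter genes *pgp-5* (5.85, 18.4, 42.1 and 17.2 FPKM) and *pgp-6* (1.87, 5.07, 7.79 and 4.25 FPKM) were higher in all 3 groups. Over 43 ABC transporter genes 9 were higher and 1 lower, with a median of 0.40 for the 15 X-linked and -0.03 for the others.

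The 6 X-linked genes with the lowest ratios were *nspc-16*, *vap-1*, *F11C7.2*, *nspc-14*, *spin-3* and *asp-14*. *vap-1*, a secreted venom-allergen-like protein of the amphid sheath, was at 47.8, 12.31, 31 and 7.49 FPKM, and its neighbour *F11C7.2* at 66.8, 19.1, 35.2 and 7.18 FPKM. *spin-3*, a spinster-type transporter gene, was at 37.8, 15, 25.5 and 19.8 FPKM and the aspartyl protease *asp-14* at 284, 125, 126 and 144 FPKM. All were lower in *met-2 set-25* than in the control too.

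Families were also formed from the name prefix alone, and 151 prefixes had at least 8 genes compared. The lowest median was that of the nematode-specific peptide family *nspc*, all 10 of which are X-linked (-1.15, with 7 lower and none higher). *nspc-14* was at 68.1 FPKM in the control, 21.7 in *dpy-27(RNAi)*, and 60.2 (*cec-4*) and 5.0 (*met-2 set-25*) in the mutants, *nspc-16* at 18.9, 3.30, 9.86 and 1.41 FPKM and *nspc-20* at 64.8, 43.1, 43.1 and 19.6 FPKM. The control was highest and *met-2 set-25* lowest in each of these named genes. The control was not highest in every member. *cec-4* was above it for *nspc-13* (6.65 against 4.86 FPKM) and *nspc-9*, and *dpy-27(RNAi)* for *nspc-17* (45.2 against 41.0 FPKM) and *nspc-3*. By its median the family was lower on a chromosome whose genes were more often higher. Similar members can share reads, so single values are uncertain. The next lowest were *acdh* (median -0.70, 5 of 9 lower), the galectins *lec* (-0.32, 3 of 12 lower, with *lec-6* at 781 and 437 FPKM), the peptidyl-prolyl isomerases *fkb* (-0.32), the *fipr* peptides (-0.32, 5 of 16 lower), the chemoreceptors *sri* (-0.31), the alpha-tubulins *tba* (-0.28) and the high mobility group genes *hmg* (-0.27, none of 8 past 1.5-fold). Of the tubulins *tba-8*, X-linked, was at 2.19, 0.415, 0.171 and 0.228 FPKM.

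The highest median was that of another nematode-specific peptide family, *nspe* (0.63, all 8 above 0 and 4 higher), all on chromosome II. *nspe-7* was at 28.8, 105, 126 and 59.9 FPKM, *nspe-8* at 0.864, 10.9, 12.4 and 6.0 FPKM, and the most abundant, *nspe-1*, at 204 and 281 FPKM. The multidrug resistance transporters *mrp* followed (0.48, all 8 above 0 and 3 higher), of which 6 are X-linked. *mrp-5*, a heme exporter, was at 51.1, 89.1, 72.0 and 72.5 FPKM, *mrp-2* at 33.7, 60.8, 59.1 and 64.3 FPKM and the autosomal *mrp-8* at 5.57 and 12.5 FPKM. The others were *osm* (0.44), *cnc* (0.41), *ins* (0.39), the F-box genes *fbxc* (0.36), the glutamate receptors *glr* (0.35) and *dyf* (0.35). In the *osm* family 8 of 9 genes lay above 0. *osm-5*, X-linked, was at 6.11 and 11.2 FPKM, and *osm-11*, X-linked and the most abundant, at 278 and 379 FPKM. The 1 below 0 was *osm-9* (7.36 and 6.26 FPKM, -0.27).

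Some of the higher and lower genes were neighbours. Of 12987 pairs of adjacent protein-coding genes, 234 (1.8%) were both higher and 130 (1%) both lower. Of single protein-coding genes 9.19% were higher and 6.62% lower, but a share of pairs and a share of single genes are unlike measures. Whether neighbours changed together more often than other pairs of genes was not tested. Runs of at least 3 numbered 39 among higher genes, 28 of them within 20 kb, and 24 among lower genes, 21 within 20 kb. Several held copies of 1 family, as in the *gst*, *ugt*, *pals*, *pud* and *grd* runs above. A run of 6 lower genes on chromosome IV (2805857 to 2841472) held *clec-80* (26.7 and 17.7 FPKM), *clec-82*, *clec-83* (91.7 and 48.8 FPKM) and *pudl-1* (3.86 and 0.980 FPKM). A run of 4 nuclear receptor genes on chromosome V (453869 to 467509) reached from *nhr-98* (8.41 and 15.4 FPKM) to *nhr-201* (7.79 and 12.4 FPKM). No run was tested, and overlapping or near-identical neighbours share reads.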

How the data were processed

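The authors trimmed the reads with Trim Galore, aligned them with TopHat2 2.0.13 to the WS235 genome, keeping reads with several hits, and obtained FPKM from Cufflinks 2.2.1. The file deposited by the authors holds the mean FPKM of each of the 4 groups. They also counted reads with HTSeq 0.6.0 and compared groups with DESeq2 1.6.3 in R 3.2.3, and the table of those fold changes and p-values was not used here. Columns holding single libraries and used here numbered 0, so depth per library and its precision are unknown from the values, and replicates, which the labels number within groups, could not be compared. Libraries were not stranded, so overlapping genes on opposite strands share reads.

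Groups came from the sample labels. Genes needed a mean above 1 FPKM in the 2 groups, ratios used a pseudocount of 0.1 and were centred on the median gene, and 1.5-fold marked a gene as higher or lower. Ratios on this scale understate differences of rare transcripts. Positions, gene classes and current symbols are from the Ensembl release 115 annotation of WBcel235, the assembly of WS235, and a matching table of gene names. Of the gene IDs 45871 were found and 299 were not. Of the genes compared 577 were listed at 0 in 1 group, 489 of them noncoding RNAs and 8 protein-coding.

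Named genes were the DCC subunits and genes the paper names, the 12 highest and 12 lowest ratios of protein-coding genes above a mean of 5 FPKM, the 6 highest and 6 lowest X-linked ones, up to 4 members with the largest ratios and the most abundant member of each list or family described, and the 8 highest and 8 lowest families by name prefix. Further genes were named after their values were seen, where they stood outside all other groups or belong to a group described. The 79 gene lists, of which 77 had a member above the minimum, and the choice of comparison were made with earlier results of these data known. Matching lists by current symbols was added after seeing the data. Alternatives were other pseudocounts (1 and 0.01), other filters, other centring (none, by X and autosomes, by 20 bins of level), 2-fold, protein-coding genes only and, added after seeing the data, no genes listed at 0. The steps were tested on simulated data. Python 3.11.15, numpy 2.4.6, pandas 2.3.3 and matplotlib 3.10.9 were used.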

Additional observations from a re-analysis of the deposited data

How the results depend on the processing

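No paired analysis was possible because the columns hold group means without replicate numbers, and leaving out single libraries was not run for the same reason. The 2074 higher and 1524 lower genes became 990 and 751 at 2-fold, 939 and 769 with a mean above 5 FPKM, 3951 and 2880 with no filter, and 1215 and 840 among protein-coding genes alone when the ratios were centred on the median of these genes. Under the other 7 settings the counts stayed within 1.5 times, but without centring 61.9% of the genes past 1.5-fold were higher and with centring by level 52.7%, beside 57.6%. List medians moved by more than 0.1 in 25 of 769 recomputations and family medians in 23 of 159, besides the *sri* median, which changed sign without a filter, from -0.31 to 0.11. Of 343 recomputed ratios of named genes 10 moved by more than 1.5-fold, all under another pseudocount. No error stands beside any value, and ratios of genes near 1 FPKM are the least certain.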
